A study of Caenorhabditis elegans with 2 samples.

Results

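The Hox genes of Caenorhabditis elegans are 6 of 19973 annotated protein-coding genes. In the order of the chromosome they are lin-39, ceh-13, mab-5, egl-5, php-3 and nob-1. They were chosen by name, and every binding site of the zinc finger transcription factor LSY-2 from 10000 bp upstream of the 5′ end of each gene through the end of the gene was described. The promoter window took in the 1000 bp before the 5′ end and the 200 bp after it, and was kept apart from sites inside the gene and from distal upstream sites. All 6 genes lie on chromosome III, and their windows held 21 different sites out of the 6312 in the authors' thresholded peak list.

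LSY-2 was mapped by chromatin immunoprecipitation followed by sequencing (ChIP-seq) in whole larvae of the second larval stage (L2), in 1 group of 2 samples that the labels call biological replicates. The strain was OP367, which has the allele unc-119(tm4063) and the transgene wgIs367, from which LSY-2 is made with GFP and FLAG tags at its C-terminal end. The animals were of mixed sex and the chromatin was sheared by sonication. The labels used here do not say which promoter drives the transgene, and a whole larva mixes all its cells, so the cells in which a Hox site was bound are unknown. With 1 group there was no condition to compare, and values of the Hox windows are set beside those of all genes or all peaks.

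Hox genes encode homeodomain transcription factors that give cells their position along the body from head to tail. In C. elegans, ceh-13 (labial type) acts towards the anterior, lin-39 in the midbody, where it is needed for the vulval precursor cells, and mab-5 in the posterior body, where it directs the migration of neuroblasts. The genes egl-5, php-3 and nob-1 belong to the Abdominal-B type and act in the tail, and php-3 and nob-1 lie next to each other in the genome. Hox genes in animals are known for long regulatory regions, with enhancers upstream and in introns, and for silencing by Polycomb proteins.

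The strongest summit in the window of each gene is shown first with 50 bp on each side, because the results turn on where these strongest sites lie. A summit is the base where the authors' peak caller put the centre of a peak. The sequences are from the ce11 assembly and read 5′ to 3′ on the strand of the gene. Capitals mark matches to GAGAGA or to ACCGTA or to TGATNNAT on either strand, and the fourth motif searched, ACGCAG, had no match at any Hox site.
ceh-13, promoter site 795 bp upstream, chrIII:7554815-7554915, plus strand: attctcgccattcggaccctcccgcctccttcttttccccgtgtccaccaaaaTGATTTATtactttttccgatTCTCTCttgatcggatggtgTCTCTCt
lin-39, intron 1 site 1741 bp downstream, chrIII:7534841-7534941, minus strand: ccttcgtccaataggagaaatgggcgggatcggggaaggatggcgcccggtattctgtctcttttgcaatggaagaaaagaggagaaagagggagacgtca
mab-5, intron 3 site 4744 bp downstream, chrIII:7778660-7778760, minus strand: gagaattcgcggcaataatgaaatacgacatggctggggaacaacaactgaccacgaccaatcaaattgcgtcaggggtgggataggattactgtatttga
egl-5, distal site 1990 bp upstream, chrIII:7812334-7812434, plus strand: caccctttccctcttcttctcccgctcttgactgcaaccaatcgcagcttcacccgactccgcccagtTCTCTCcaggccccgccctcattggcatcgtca
nob-1, promoter site 778 bp upstream, chrIII:12085044-12085144, minus strand: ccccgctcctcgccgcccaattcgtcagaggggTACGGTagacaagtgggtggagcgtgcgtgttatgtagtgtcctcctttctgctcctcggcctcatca
The sites at lin-39 and mab-5, with the highest scores of their windows, held none of the searched motifs, so they are all in lower case. The strongest site of php-3 is the one printed for nob-1, since the php-3 window takes in the nob-1 promoter.

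Of the 6 Hox genes, 5 had an optimal summit in the promoter window, where 19.2% of all protein-coding genes had one. The exception was php-3. "Optimal" is the authors' name for the list thresholded on the reproducibility of both replicates. The count of 5 was 2 with a promoter window of 500 bp upstream and 3 with the strongest 50% of optimal peaks. Over all 19973 protein-coding genes the count was 3831, and it was 3099 and 2670 by these alternatives. It was 3 with the 6312 strongest peaks of replicate 1 alone, without replicate 2, and 5 with those of replicate 2 alone. In the whole window all 6 Hox genes had an optimal summit, as 47.0% of protein-coding genes did, and every one of them had at least 2, a count that 23.8% of all genes reached. The gene mab-5 had 7, and only 0.376% of all protein-coding genes had as many or more. Both ceh-13 and lin-39 had 5, a count reached by 1.81% of genes, and egl-5, php-3 and nob-1 had 2 each. Over all genes the median was 0 summits and the 90th percentile was 3.

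The length of the windows differed less than their counts. They spanned 12382 bp at ceh-13, 17992 bp at lin-39, 16620 bp at mab-5, 12768 bp at egl-5, 13339 bp at php-3 and 16524 bp at nob-1, beside a median of 12027 bp over all genes. Per 10000 bp of window, mab-5 had 4.21 summits, ceh-13 had 4.04 and lin-39 had 2.78. The density was 1.57 at egl-5 and 1.21 at nob-1, with php-3 between them. The 90th percentile over all genes was 1.89, so mab-5, ceh-13 and lin-39 lay above it and the Abdominal-B type genes below it. Much of the upstream sequence is free of other protein-coding genes. The divergent genes ceh-13 and lin-39 are 19027 bp apart, and 18964 bp lie between egl-5 and the next protein-coding gene upstream, cyk-7. By contrast php-3 starts 236 bp from the end of nob-1.

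**Figure D1:**
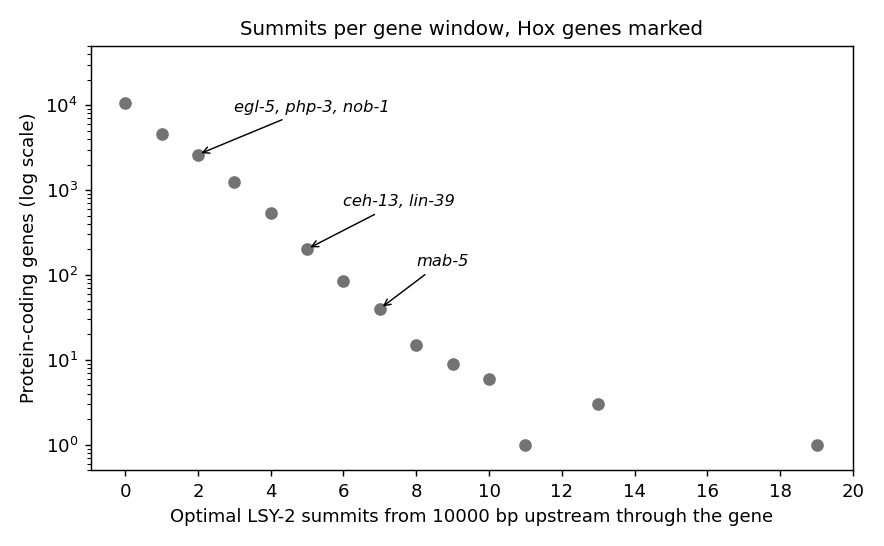
Number of protein-coding genes (y axis, log scale) against the number of optimal LSY-2 summits from 10000 bp upstream of the 5′ end through the gene (x axis), with the Hox genes marked. The count of 7 at mab-5 and of 5 at ceh-13 and lin-39 lie in the thin tail, while egl-5, php-3 and nob-1 have 2 summits like 2621 genes.

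The 21 Hox sites fell into 6 promoter sites, 7 intronic sites, 8 distal upstream sites and 0 in exons. An intronic summit was found at lin-39, mab-5 and nob-1, 3 of the 6 genes, and at 5.26% of all protein-coding genes. These are the longest Hox genes, with 7992, 6620 and 6524 bp, beside 2382 to 3339 bp for the others. The length of intron searched was not matched between Hox genes and all genes. A distal upstream summit was found at 5 of the 6, all but nob-1, and at 36.6% of all genes. The promoter share was 28.6%, while 48.4% of all optimal summits lay in the promoter of some protein-coding gene. The exact Clopper-Pearson 95% interval of the Hox share was 11.3 to 52.2. This interval covers the counting of sites only and treats them as independent, though some lie close together. Counted as pairs of a gene and a summit in its window, 22.6% of the 17852 pairs over all genes were promoter pairs. Intronic pairs made up 9.07% of these and distal pairs 66.7%. In that count 47.6% of pairs had a summit in the promoter of another gene, whichever gene that was. The 21 Hox sites were instead counted once each, and the 2 in both the php-3 and nob-1 windows took their nob-1 class. By pairs, php-3 had 1 of its 2 summits in the promoter of another gene, nob-1. None of the 21 Hox sites lay in the promoter of a protein-coding gene outside the Hox set.

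**Figure D2:**
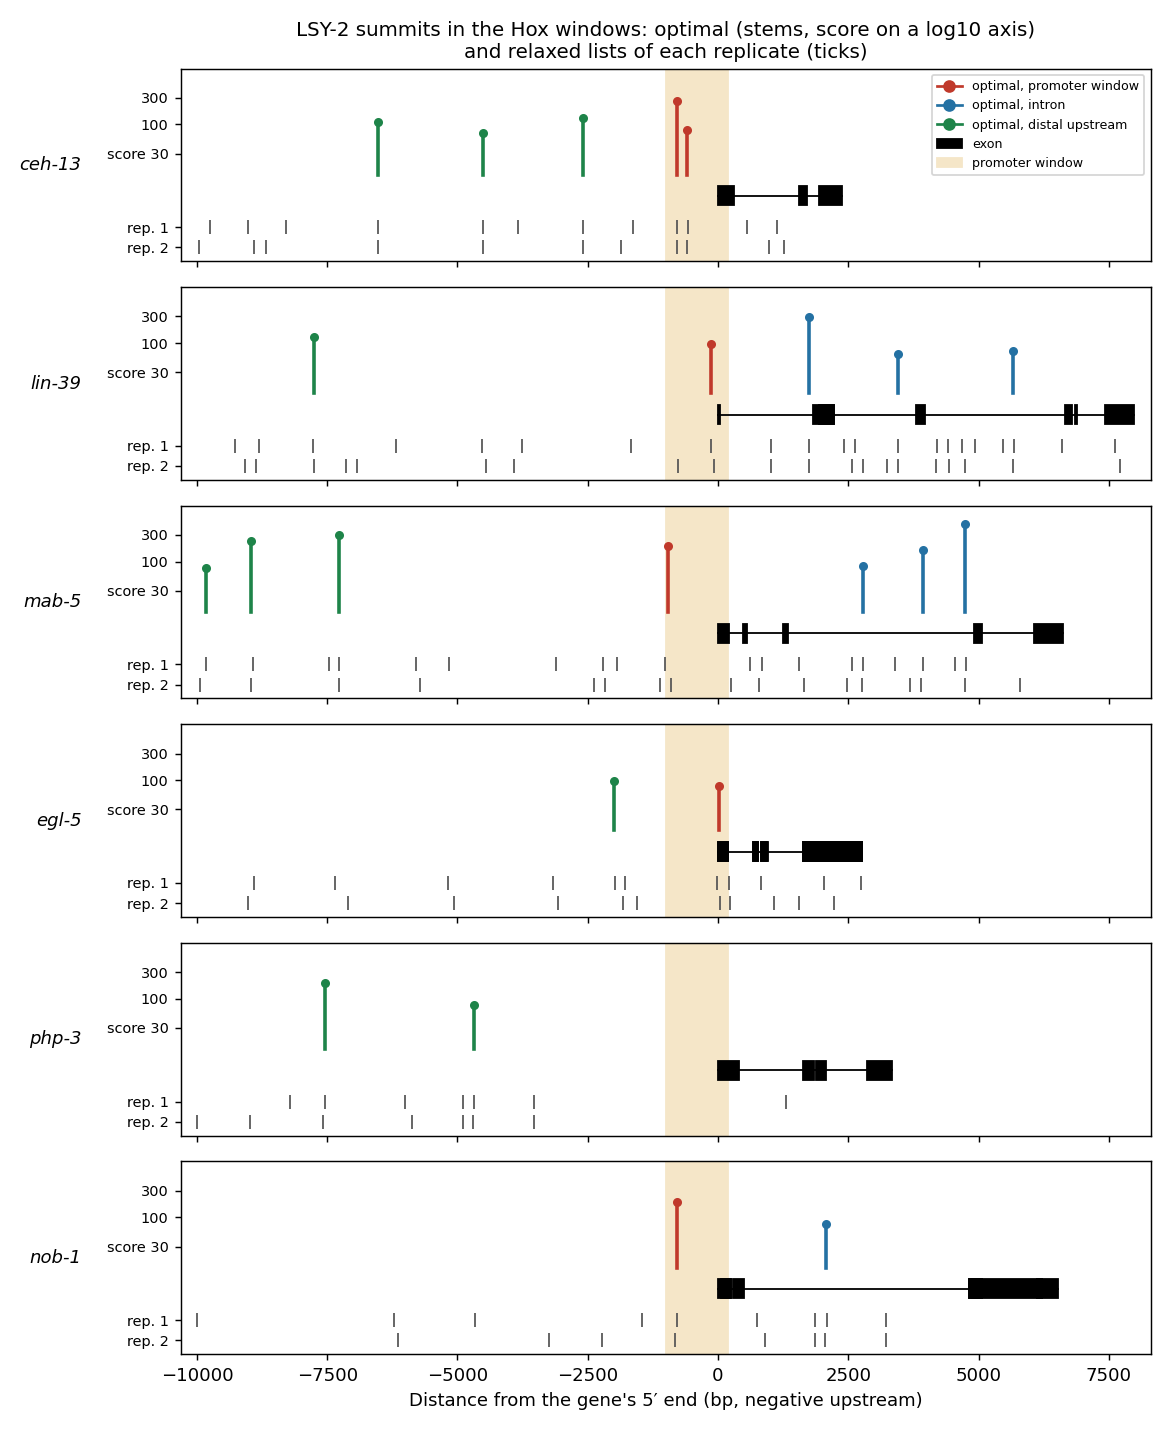
LSY-2 summits along the window of each Hox gene, by distance from its 5′ end (x axis, bp, negative upstream). Stems are optimal summits with the authors' peak score on a log10 axis, coloured by class, black boxes are exons, the shaded band is the promoter window, and ticks are the summits of the relaxed list of each replicate. The stems of mab-5 and lin-39 are highest inside the gene, those of ceh-13 and nob-1 are highest in the promoter window, and php-3 has none from 4689 bp upstream to its end.

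The anterior gene ceh-13 had all its optimal summits upstream. In the promoter window they lay 795 bp and 591 bp upstream of the 5′ end. The peak of the farther one, at chrIII:7554694-7554989, had a score of 257, the authors' own value for a peak, for which the sources used here give no scale. The nearer one, at chrIII:7554869-7555268, had a score of 78.0. Their summits were 204 bp apart and the peaks overlapped, so they are 2 entries of the list over 1 stretch of chromatin. The stronger ranked 1269 of 30000 relaxed peaks in replicate 1 and 1646 in replicate 2. The weaker ranked 8667 in replicate 1 and 3760 in replicate 2, so the replicates placed it less alike. Its distal sites lay 2583, 4500 and 6516 bp upstream with scores of 131, 68.8 and 109. Neighbouring sites were spaced at 1788, 1917 and 2016 bp up to the promoter pair. All of these sites lie in the 19027 bp that ceh-13 shares with lin-39.

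The midbody gene lin-39 had its strongest summit inside the gene. This site, in intron 1 at chrIII:7534698-7535054, lay 1741 bp downstream of the 5′ end and had a score of 293. Its score was 177 in replicate 1, where it ranked 1043, and 123 in replicate 2, where it ranked 1315. It lay 86 bp upstream of the start of a shorter annotated transcript of lin-39, so by that start it is a promoter site. The promoter summit at the outer 5′ end, 140 bp upstream at chrIII:7536572-7536971, had a score of 97.6 and lay within the annotated noncoding RNA genes C07H6.12 and C07H6.16. Of the other intronic sites, the one in intron 2, 3460 bp downstream, had a score of 63.2, the lowest of all Hox sites, and the one in intron 3, 5665 bp downstream and inside the noncoding RNA gene C07H6.14, had 73.1. The distal site of lin-39, 7758 bp upstream with a score of 126, lay within the long noncoding RNA gene linc-57. It ranked 4628 in replicate 1 and 2383 in replicate 2. The 7618 bp between this site and the promoter site held no optimal summit.

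The posterior gene mab-5 held the strongest Hox site. It lay in intron 3 at chrIII:7778526-7778895, 4744 bp downstream of the 5′ end, with a score of 473 and rank 622 of 6312. Its score was 265 in replicate 1, where it ranked 611, and 212 in replicate 2, where it ranked 642, so both libraries placed it at nearly the same rank. Intron 3 held 2 more sites, 3940 bp downstream with a score of 159 and 2781 bp downstream with a score of 83.3. Far upstream, sites at 7267 and 8966 bp had scores of 294 and 236, both above the promoter site. A last one, 9828 bp upstream with a score of 75.3, lay just inside the edge of the window. Between 7267 and 952 bp upstream there was no optimal summit over 6315 bp.

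The promoter call of mab-5 rested on a summit near the outer edge of the promoter window. In the optimal list the summit lay 952 bp upstream, at chrIII:7784370-7784630, with a score of 187. In replicate 1 the matching summit lay 1016 bp upstream, outside the promoter window, with a score of 113 and rank 1898. In replicate 2 it lay 908 bp upstream, inside the window, with a score of 88.9 and rank 2021. Both replicates thus had a strong summit within the matching distance, and the 1000 bp limit falls between the 2 summits. Their peaks did not overlap, with chrIII:7784416-7784608 in replicate 1 and chrIII:7784266-7784365 in replicate 2. A second replicate 2 peak, at chrIII:7784366-7784765, did overlap that of replicate 1. Its summit lay 1112 bp upstream, outside the promoter window, and was weak, with a score of 10.4 and rank 17429.

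The tail gene egl-5 had a promoter summit 23 bp downstream of its 5′ end, with a score of 78.6, and a distal one 1990 bp upstream, with a score of 95.6. The promoter summit ranked 6364 in replicate 1 and 3805 in replicate 2. The distal one ranked 3084 in replicate 1 and 6285 in replicate 2. The nearest summit in replicate 2 was 173 bp away, the largest such distance among the Hox sites. That summit, 1817 bp upstream, lay nearer to a weaker peak 1789 bp upstream in the relaxed list of both replicates pooled. Its rank may thus belong to that weaker peak. Replicate 1 had summits 1982 and 1776 bp upstream. From 10000 bp upstream to the distal site, 8010 bp held no optimal summit. At egl-5, with the lowest strongest score of the 6 genes, each site stood higher in a different replicate, though the distal match in replicate 2 is uncertain.

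The neighbours nob-1 and php-3 shared both of their sites. For nob-1 one was a promoter site 778 bp upstream, at chrIII:12084998-12085248, with a score of 192, which ranked 2092 in replicate 1 and 1852 in replicate 2. The other lay in intron 2 of nob-1, 2071 bp downstream, with a score of 77.2, and ranked 7162 in replicate 1 and 3932 in replicate 2. Seen from php-3, the same summits lay 7538 and 4689 bp upstream. No optimal summit lay within php-3, in the 236 bp before it or elsewhere in its promoter window, nor in the 9222 bp of the nob-1 window beyond the promoter site. The relaxed lists, which also keep weak peaks, had no php-3 promoter summit in either replicate, while 35.9% of all genes had a relaxed promoter summit in replicate 1 and 35.5% in replicate 2.

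Hox sites were of middling strength among LSY-2 peaks. Their scores ran from 63.2 to 473 with a median of 109, beside a median of 123 for all optimal peaks, and 10 of the 21 were above that overall median. The 6 promoter sites had scores from 78.0 to 257 and a median of 142, beside a median of 174 for all optimal peaks in promoters. The 15 sites outside promoters comprised the intronic ones, from 63.2 to 473 with a median of 83.3, and the distal ones, from 68.8 to 294 with a median of 117. All optimal peaks outside promoters had a median of 99.4. Among genes with a promoter summit the median of the strongest promoter score was 199.9, and ceh-13 was the only Hox gene above it.

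Which part of the window held the strongest summit differed between the Hox genes. The strongest summit outside the promoter scored 3.002 times the promoter summit at lin-39, 2.53 times at mab-5 and 1.22 times at egl-5. The ratio was 0.508 at ceh-13 and 0.402 at nob-1, where the promoter summit was the stronger. The strongest summit was thus outside the promoter in 3 of 5 genes, where it was in 49.5% of the 2291 genes with both kinds of summit. This count is close to the background. The median ratio over those genes was 0.981. With the starts of all annotated transcripts, an alternative chosen after seeing the data, the intron 1 site of lin-39 counted as a promoter site and its ratio was 0.430. The count was then 2 of 5 Hox genes, beside 50.4% of 2445 genes. Without replicate 2 it was 1, without replicate 1 it was 2, and with the strongest 50% of peaks it was 1. The counts of 1 are not out of 5, because Hox genes without a promoter summit dropped out. Without replicate 2 only ceh-13, lin-39 and nob-1 had a promoter summit, and with the strongest 50% only ceh-13, mab-5 and nob-1. For these alternatives no share over all genes is given.

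**Figure D3:**
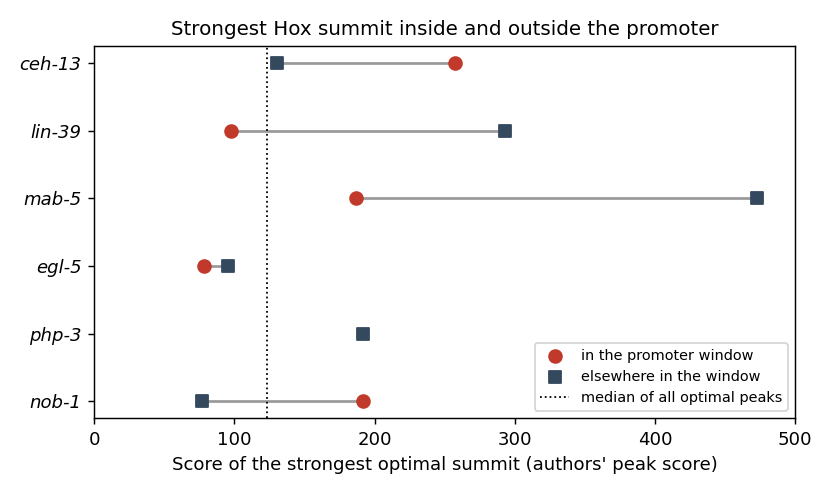
Score of the strongest optimal summit in the promoter window (circles) and elsewhere in the window (squares) of each Hox gene, with the median of all optimal peaks as a dotted line. Promoters are those of the outer 5′ end, by which the lin-39 site at 293 lies elsewhere. At mab-5 the intronic site at 473 stands far to the right of the promoter site at 187, and at ceh-13 the promoter site at 257 stands to the right of the strongest distal site at 131.

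All 21 Hox sites had a summit within 200 bp in the relaxed lists of both replicates, as 98.6% of all optimal peaks did. With a match within 100 bp, 19 of the 21 did. The optimal list was derived from the same libraries, so this support is partly built in. A stricter count took only the 6312 strongest peaks of each replicate. By it 15 of 21 Hox sites were found in both replicates, 17 in replicate 1 and 19 in replicate 2, beside 79.3% of all optimal peaks found in both. The sites found in both were 6 of 7 at mab-5, 4 of 5 at lin-39, 3 of 5 at ceh-13, and 1 of 2 each at egl-5 and nob-1. The one at egl-5 was the distal site, whose replicate 2 match lay 173 bp away and is uncertain. By class they were 4 of 6 promoter, 5 of 7 intronic and 6 of 8 distal sites. The median distance from the optimal summit to the nearest summit was 5 bp in replicate 1 and 7 bp in replicate 2.

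The sites that missed the strongest 6312 of a replicate were all weak ones. In replicate 1 they were the nearer ceh-13 promoter site, the lin-39 site in intron 2, the egl-5 promoter site and the nob-1 intronic site. In replicate 2 they were the ceh-13 site 4500 bp upstream, with rank 7113, and the mab-5 site 9828 bp upstream, with rank 6940. The highest optimal score among these 6 sites was 78.6, that of egl-5.

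**Figure D4:**
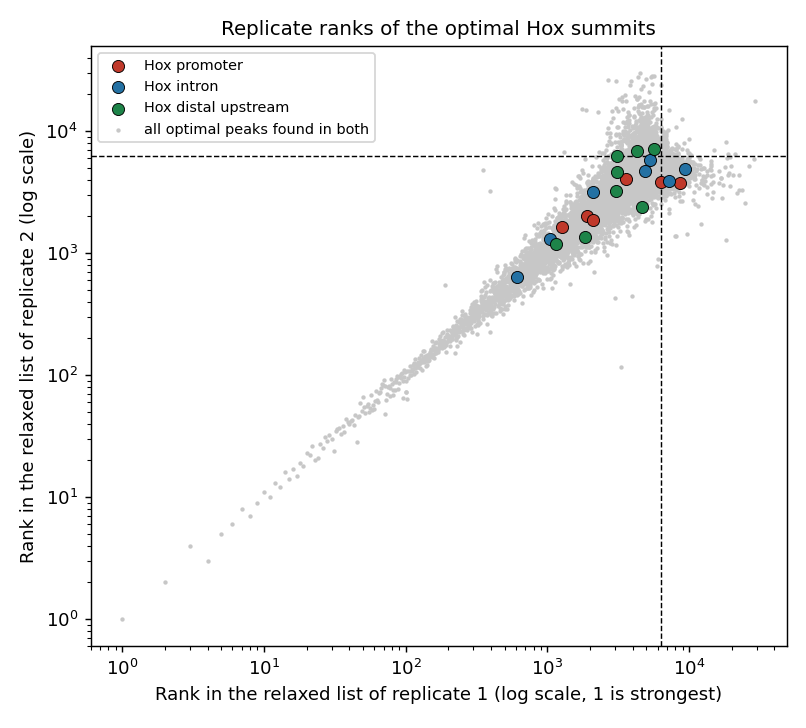
Rank of each optimal site in the relaxed list of replicate 1 (x axis) and of replicate 2 (y axis), both on log scales with 1 as the strongest. Coloured circles are the 21 Hox sites by class, grey dots are all optimal peaks found in both lists, and dashed lines mark rank 6312. The Hox sites lie in the middle and weak parts of the cloud, from the mab-5 intronic site at ranks 611 and 642 to sites beyond a dashed line.

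The relaxed lists, which hold 30000 peaks each, filled the Hox windows further. They held 72 different summits in replicate 1 and 66 in replicate 2, of which 24 and 22 lay within 200 bp of an optimal Hox summit. By gene, lin-39 had 21 relaxed summits in replicate 1 and 20 in replicate 2. The counts were 19 and 17 at mab-5, 12 and 11 at ceh-13, and 11 in both replicates at egl-5. Lower counts were found at nob-1, with 9 and 8, and at php-3, with 7 in both. All protein-coding genes had a median of 2 in each replicate, and the 90th percentile was 10. As many relaxed summits as at lin-39 were found at 0.666% of genes in replicate 1 and at 0.821% in replicate 2. At php-3 the shares were 23.2% and 23.3%.

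The relaxed summits were mostly distal or intronic. In replicate 1 there were 29 intronic, 34 distal, 5 promoter and 4 exonic summits, and in replicate 2 there were 28 intronic, 29 distal, 7 promoter and 2 exonic ones. At lin-39 alone the introns held 12 in replicate 1 and 10 in replicate 2, and at mab-5 they held 9 in each. Counted as pairs of a gene and a summit in its window, 36.7% of 79 Hox pairs in replicate 1 were intronic, beside 15.0% of the pairs of all genes. In replicate 2 the shares were 37.8% of 74 Hox pairs and 15.1% of all pairs. Intron length was not matched in these comparisons. The exonic summits were at egl-5 and lin-39. Of the relaxed Hox summits 40.3% in replicate 1 had the highest −log10 q-value of the list, as did 32.3% of all its peaks, and in replicate 2 the shares were 53.0% for the Hox summits and 34.8% for all peaks.

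Some weak sites were found in both replicates without an entry in the optimal list. Counted from replicate 1, there were 26 such summits within 200 bp of a replicate 2 summit: 10 in the lin-39 window, 6 at mab-5, 4 at egl-5, 4 at nob-1 and 2 at ceh-13. Of those at nob-1, 3 were intronic and also lay in the php-3 window. At lin-39 the summits 2623 and 2424 bp downstream matched the same replicate 2 summit. At mab-5 those 847 and 618 bp downstream also shared a match. No share of such matches over all genes was computed, so the count of 26 cannot be called high or low. Only 3 of the 26 had a rank below 10000 in both replicates, where 1 is the strongest. They lay 4535 bp upstream of lin-39 (ranks 6243 and 9497 in replicates 1 and 2), 5803 bp upstream of mab-5 (9155 and 7675) and 5184 bp upstream of egl-5 (9304 and 8149). All 3 are distal sites in stretches where the optimal list had none. Another lin-39 site, 8801 bp upstream, ranked 4957 in replicate 2 and 13450 in replicate 1.

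Several optimal summits lay just outside the Hox windows. The end of ceh-13 was followed after 48 bp by a summit with a score of 204, higher than any ceh-13 site but the stronger promoter one. A summit 1476 bp past the end of lin-39 had a score of 166, and one 5628 bp past the end of mab-5 had a score of 315. Upstream of nob-1, a summit with a score of 74.2 lay 10031 bp away, just past the limit, and in replicate 1 its partner lay 9992 bp upstream, inside it. The next summit beyond the mab-5 window, 12050 bp upstream with a score of 95.5, lay in the promoter of cyk-7.

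Some short motifs were unevenly spread over the Hox sites. Within 50 bp of each summit, on either strand, ACCGTA was found at 5 of 21 Hox sites and at 6.88% of all optimal summits. Of these 5, mab-5 had 4 among its 7 sites and nob-1 had its promoter site. TGATNNAT, a composite site for Hox proteins with their PBC cofactors, was found at 5 of 21 Hox sites and at 6.35% of all optimal summits. Of those, ceh-13 had 4 among its 5 sites, all but the one 4500 bp upstream, and lin-39 had its promoter site. GAGAGA was at 11 of 21 Hox sites and at 27.1% of all optimal summits, with at least 1 site at every gene. ACGCAG was at 0 of 21 Hox sites and at 14.6% of all. Some sites lie close together and the 2 ceh-13 promoter peaks overlap, so the 21 are not taken as independent. A match says only that the letters are in the window.

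The matches to ACCGTA are lined up here with 10 bases on each side, in the direction in which the motif reads forward, because they recur within the mab-5 window. Capitals mark the motif, and the coordinates are those of the motif itself.
mab-5, site 3940 bp downstream, chrIII:7779480-7779485, plus strand: ttttcaaactACCGTAgtccgctctc
mab-5, site 7267 bp upstream, chrIII:7790757-7790762, minus strand: gccgtcgactACCGTAccccatgcgg
mab-5, site 8966 bp upstream, chrIII:7792405-7792410, minus strand: acgtcgacctACCGTAcccgaagaca
mab-5, site 9828 bp upstream, chrIII:7793325-7793330, plus strand: tttgaaaactACCGTAttacagtaga
nob-1, site 778 bp upstream, chrIII:12085106-12085111, plus strand: ccacttgtctACCGTAcccctctgac
In all 5 sites the bases before the motif were c and t. The longer CTACCGTA was present at 2.01% of all optimal summits, and at 29.3% of those with ACCGTA. This extension was chosen after the aligned sequences were seen, so it is a description.

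The matches to TGATNNAT are lined up in the same way, because they mark 4 of the 5 ceh-13 sites. The inner bases shown by N differ between the sites.
lin-39, site 140 bp upstream, chrIII:7536776-7536783, minus strand: cgaacctcttTGATCTATgccgacagtg
ceh-13, site 6516 bp upstream, chrIII:7549180-7549187, minus strand: acaacccaaaTGATGGATggttcggtgg
ceh-13, site 2583 bp upstream, chrIII:7553099-7553106, minus strand: ggagtggcaaTGATCGATgtgttttctt
ceh-13, site 795 bp upstream, chrIII:7554868-7554875, plus strand: tccaccaaaaTGATTTATtactttttcc
ceh-13, site 591 bp upstream, chrIII:7555042-7555049, plus strand: taggtaaaaaTGATTAATttctttgtcg
The GC content within 50 bp of the summit ran from 33.7% to 60.4% over the Hox sites, with a median of 46.5%, and had a median of 43.6% over all optimal summits. The lowest was the mab-5 promoter site, and the highest value was shared by the nob-1 promoter site, the egl-5 distal site and the mab-5 site 8966 bp upstream. TGATNNAT and ACCGTA did not occur together at any Hox site.

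Genes that act with the Hox genes were described by role. The list, taken from textbook knowledge with earlier results of these data known, held 25 genes, of which 11 had an optimal promoter summit, beside the 19.2% of all genes. With the starts of all annotated transcripts the count was 13, as pal-1 and unc-62 were added. Over all protein-coding genes it then rose from 3831 to 4122. By the outer 5′ end, the regulators of Hox expression held 10 of the 11, out of 12 listed. Polycomb-like silencing genes were among them. The gene mes-2, a histone H3 methyltransferase, had a promoter summit with a score of 511, 134 bp upstream. Its partners mes-6 and mes-3 had 195 and 59.9, and the mes-6 summit also lay in the promoter of tag-77. The genes sop-2, sor-1 and sor-3, which keep Hox genes silent outside their domains, had 717, 2592 and 381. The sor-1 peak ranked 90 of 6312, far above every Hox site.

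Some of the other regulators of Hox expression also had promoter summits. The trithorax-like genes lin-49 and lin-59, which keep Hox genes active, had scores of 258 and 248. A further regulator, egl-27, related to subunits of nucleosome remodelling complexes, had a weak promoter summit of 63.9 but 13 summits in its window, 8 of them intronic. The Hairy-related gene lin-22 had 120, at 970 bp upstream. The caudal-type homeobox gene pal-1 had no promoter summit at its outer 5′ end but an intronic one with a score of 161. With the starts of all annotated transcripts pal-1 did have a promoter summit. The even-skipped-type gene vab-7 had none in its window.

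Among the Hox cofactors 1 of 4 had a promoter summit by the outer 5′ end. It was ceh-20, a PBC homeodomain gene, with a score of 426, 789 bp upstream. The strongest summit in the ceh-20 window scored 6561 and lay distal to its promoter. Whether this or another distal summit of the listed genes lies in the promoter of a neighbouring gene was not recorded. The Meis-type gene unc-62 had 4 summits in its window, 2 of them intronic, and a strongest score of 894. With the starts of all annotated transcripts unc-62 also had a promoter summit. The gene ceh-60 had 1 distal summit with 70.5, and ceh-40 had none in its window. Of 9 genes reported as targets of Hox proteins, which include the Twist gene hlh-8, the fusion gene eff-1 and the cell death gene egl-1, 0 had a promoter summit. The share over all protein-coding genes was 19.2%, and so few targets or cofactors cannot be set apart from it. The targets hlh-8, mls-2, egl-17, mig-13 and lin-32 lie on the X chromosome, as does only sor-3 among the regulators. Role and chromosome are thus mixed. An intronic summit was found at the GATA factor gene egl-18, with a score of 185, and 2 distal ones at the atonal-type gene lin-32, the stronger with 598. Because the list mixes genes of all chromosomes and its roles were set by hand, its counts describe these 25 genes only.

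**Figure D5:**
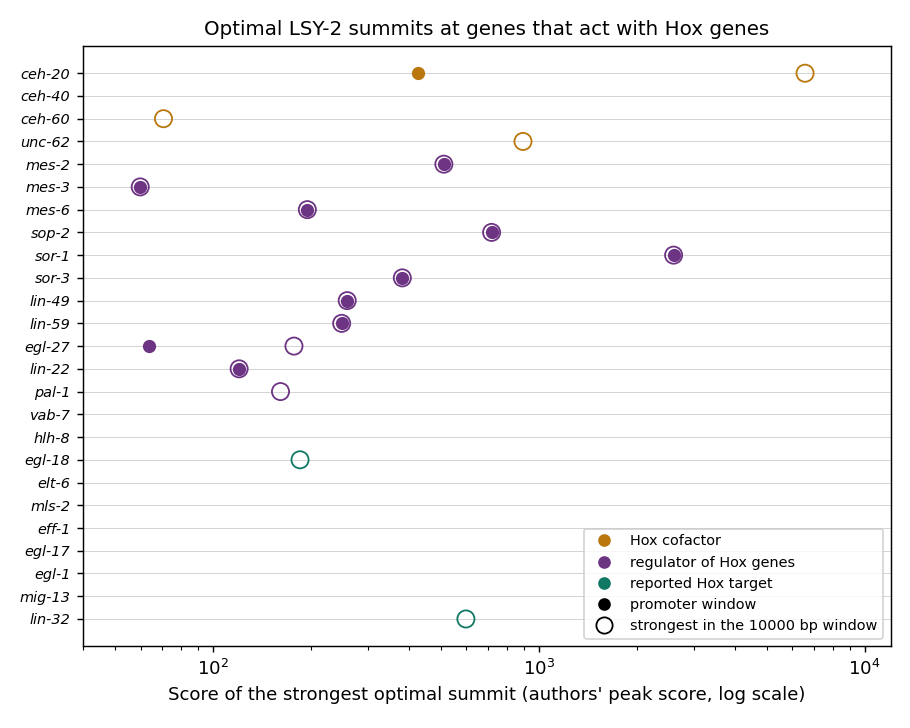
Score of the strongest optimal summit in the promoter window (filled circles) and in the 10000 bp window (open circles) of 25 genes that act with the Hox genes, by role, on a log scale; a row without a symbol has no optimal summit in its window. Promoters are those of the outer 5′ end. The regulators are filled from 59.9 at mes-3 to 2592 at sor-1, and no reported target has a filled circle.

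Genes with the same numbers of optimal summits in promoter, distal region and introns were sought over all protein-coding genes outside the Hox windows, and the one with the nearest strongest score, on a log10 scale, was named. For ceh-13 it was cnx-1 (strongest score 261), 1 of 14 genes with the same counts, and for lin-39 it was tres-1 (274), 1 of 8. No gene had the counts of mab-5. The patterns of the tail genes were common: 1015 genes had the counts of egl-5, 1225 those of php-3 and 93 those of nob-1, and the nearest were cpl-1 (95.6), ZK688.11 (192) and hip-1 (192). These likenesses are over the summits of 1 peak list and say nothing of shared control.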

How the data were processed

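ChIP-seq peak lists of LSY-2 from 2 biological replicates in 1 group were used. As the descriptions that came with the deposited files state, relaxed lists were called by the authors on each replicate against a control and on both pooled, and an optimal list was derived from them by irreproducible discovery rate. Aligner, peak caller and threshold are not given in the sources used here. Deposited files give each peak a score and a −log10 q-value, and the offset of its summit. The q-value was at its maximum for 100% of optimal peaks and ranked none of them. The files used hold no read counts, so depth is unknown. The 4 lists on ce11 were used, and the ce10 lists were not used here.

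Summits were placed on WBcel235, which is ce11, with genes of Ensembl release 115 and sequence of the RefSeq assembly. A gene's 5′ end was its outer annotated end. Summits matched within 200 bp. Scores were compared only within 1 list, since a ratio between lists is no measure of binding. No set or chance test was made. The members, lists, motifs and tests were chosen with earlier results of these data known. Named were the 6 Hox genes, genes whose promoter holds a Hox site, pathway genes with a promoter summit, and for each Hox gene the nearest gene with the same counts. Other named genes and the CTACCGTA extension were chosen after their values were seen. Alternatives were other promoter and window limits, matching distances, the strongest 50% of peaks, all transcript starts, the nearest 5′ end only, merged summits, and each replicate alone. Counting was tested on simulated peaks. Python 3.11.15, numpy 2.4.6, pandas 2.3.3, scipy 1.17.1 and matplotlib 3.10.9 were used.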

Additional observations from a re-analysis of the deposited data

How the results depend on the processing

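Of 55 alternative values for 10 results, 41 stayed near the reported value and 14 moved further. Near meant within 1.5 times the reported count or within the 95% interval of the reported median or share. These intervals treat the sites as independent, though some lie close together. With a promoter window from 500 bp upstream, 2 Hox genes (lin-39 and egl-5) had a promoter summit, the promoter share of Hox summits was 9.52% and 6 pathway genes had one. With the strongest 50% of optimal peaks, 3 Hox genes (ceh-13, mab-5 and nob-1) had a promoter summit, the windows held 10 summits, 4 of them distal and 3 intronic, and the median score was 214. Dropping the weaker peaks can only lower these counts of genes and summits and raise the median, so such moves were partly fixed in advance. The strongest summit lay outside the promoter in 1 Hox gene by the strongest 50% of peaks, and in 1 to 2 with a single replicate. Hox genes left without a promoter summit were not in these counts. With a window from 5000 bp upstream, 3 distal summits were left, since fewer bases were searched.

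With the strongest peaks of 1 replicate in place of the optimal list, 3 to 5 Hox genes had a promoter summit, the lower count without replicate 2. Then mab-5 was lost because its summit lay 1016 bp upstream and egl-5 because its peak ranked 6364. The windows held 18 to 23 summits, with 7 to 10 distal and 5 to 10 intronic ones and a promoter share of 16.7% to 26.1%. The median score was 48.6 to 72.1, on the scales of the other lists. No paired analysis was possible because the series has 1 group. Weak peaks near the threshold and summits near a window edge limit the counts, and the small number of sites limits every share.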

Other observations

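Several 6-mers, picked after their shares were seen as those with the largest difference, were more frequent at the Hox sites than at all optimal summits. AAGAAG, read on either strand, was at 10 of 21 Hox sites (47.6%) and at 13.4% of all optimal summits. CCGCCC was at 7 Hox sites (33.3%) and at 4.75% of all, CCAAAA at 7 (33.3%) and at 9.70%, and GCGGGA at 6 (28.6%) and at 5.29%. They were chosen for this difference on these sites, so no test was made. The GC content also differed, with a median of 46.5% at the Hox sites and 43.6% at all optimal summits, and its part in these shares was not tested.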
